A study of Mus musculus with 10 samples.

Results

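The genes described here encode the proteins of the cytosolic ribosome. They were taken by symbol, as Rpl or Rps followed by a digit with an optional letter, x or l, together with Rplp0, Rplp1, Rplp2 and Rpsa, leaving out pseudogene symbols with -ps and the Rps6k kinases. The rule found 81 genes among 36401 in the tables, 49 of the large and 32 of the small subunit. Of these, 78 passed the filter on low counts, 46 of the large and 32 of the small subunit, among 15678 genes that passed it in all. The samples were terminal ileum, the last stretch of the small intestine, from male C57Bl6 mice kept on a diet with 60% of energy as fat for 6 weeks before an operation at the age of 8 weeks. In 5 libraries the operation was vertical sleeve gastrectomy (VSG), which removes most of the stomach along its outer curve, followed by free access to food. In the other 5 it was a sham operation followed by pair-feeding (SPF), in which each control gets the amount of food that operated mice eat. All mice had a liquid diet on 4 days around the operation. About 8 weeks after surgery all were fasted overnight, were given 0.5 mL of the liquid diet Osmolite by gavage and were killed 1 hour later. The gastrectomy group and the sham group therefore differ in the operation and in free against matched feeding, and both carry the same fat diet, fast and gavage.

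A ribosome is built from ribosomal RNA and one copy of nearly every protein of its large and small subunits, so cells make these proteins in matched amounts. Their mRNAs are among the most abundant of any cell, are short, and begin with a run of pyrimidines, the 5′ terminal oligopyrimidine tract, through which mTOR complex 1 and the RNA-binding protein LARP1 control how strongly they are translated and stored. In the gut, the dividing crypt cells and the secretory cells of the epithelium make much protein, and feeding is a classic stimulus of the mTOR route. RNA-seq reads the amount of the mRNA and not its translation, and in a piece of tissue a lower level cannot be told apart from fewer cells of a type that is rich in the mRNA.

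The start regions of members on which the results below turn are shown with their pyrimidine runs. Each window covers 60 bases before to 20 bases after the annotated start, on the coding strand, from RefSeq on GRCm38.p6, with the longest run of C and T in capitals. Rps27 had the largest and Rpl7a the smallest distance of 1 sham library from the others, Rpl4 and Rpsa are among the most abundant members of each subunit, Rps6 is the substrate of the S6 kinases, Rpl31 varied most over libraries in its subunit, and Rps27l and Rpl36al followed the other members least.
Rps27, chr3:90213629-90213708, minus strand: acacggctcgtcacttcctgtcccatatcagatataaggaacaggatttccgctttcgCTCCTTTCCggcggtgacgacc
Rpl7a, chr2:26910747-26910826, plus strand: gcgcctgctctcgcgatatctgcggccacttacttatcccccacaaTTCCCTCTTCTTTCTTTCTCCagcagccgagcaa
Rpl4, chr9:64173327-64173406, plus strand: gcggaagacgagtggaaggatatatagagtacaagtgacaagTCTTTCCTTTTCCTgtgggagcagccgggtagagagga
Rpsa, chr9:120127706-120127785, plus strand: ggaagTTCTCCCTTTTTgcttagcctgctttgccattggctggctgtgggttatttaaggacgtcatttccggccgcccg
Rps6, chr4:86857348-86857427, minus strand: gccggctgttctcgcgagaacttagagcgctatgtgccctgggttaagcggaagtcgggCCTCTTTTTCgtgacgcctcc
Rpl31, chr1:39367791-39367870, plus strand: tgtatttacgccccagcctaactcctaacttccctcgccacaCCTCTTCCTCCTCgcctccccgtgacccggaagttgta
Rps27l, chr9:66946026-66946105, plus strand: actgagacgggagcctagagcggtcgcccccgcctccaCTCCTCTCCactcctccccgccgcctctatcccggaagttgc
Rpl36al, chr12:69184048-69184127, minus strand: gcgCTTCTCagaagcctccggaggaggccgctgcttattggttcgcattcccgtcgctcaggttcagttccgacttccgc

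In Rps27, Rpl7a and Rps6 the run spans the annotated start, whereas in Rpsa it begins 55 and in Rpl36al 57 bases before it. In Rpl4, Rpl31 and Rps27l the run begins 18, 18 and 22 bases before the start and also ends before it. A run in capitals is thus not always part of the annotated mRNA. Rps27l has a second annotated start, which is not shown. A promoter entry was found for 60 of the 81 symbols. A pyrimidine run of at least 8 bases stood anywhere in the 80-base window, on the coding strand, for 65.0% of these 60. The same held for 34.5% of the 27025 symbols in the whole table. Such a run need not be a terminal oligopyrimidine tract. The letters CCGGAAG, the core that factors of the ETS family bind, were found on either strand of the 300 bases from 250 before to 50 after the start in 40.0% of the members and in 9.93% of all symbols. In Rpl31 and in Rps27l this motif is visible in the last 20 bases of the windows above. The letters CTCTTTCC, themselves a pyrimidine run, were found in 16.7% against 3.57%, ATGGCGGC in 6.67% against 2.60%, and TATAAA in 10% against 15.7%. These are matches of letters, and no binding was measured.

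The libraries held 15364651 to 34058181 estimated counts, and their log2 values correlated at 0.912 to 0.985. Levels below are CPM, read counts put on a common library size with trimmed-mean (TMM) scaling factors. Markers fixed for gut regions and cell types did not match the label in the same way in every library. Summed over 7 genes of the upper small intestine, VSG 2, SPF 2 and SPF 4 had 2803, 3235 and 3042 CPM, and the other libraries 65.7 to 150. Over 6 genes typical of the ileum, those 3 libraries had 402 to 587 CPM and the others 4324 to 9321. SPF 3 stood apart in another way: its 10 smooth muscle genes summed to 467 CPM, against 1017 to 4312 in the other libraries. The members' fold changes as a set are given with and without SPF 3, and with and without those 3 libraries. Counts of fold changes below 0 in pathway lists are given with and without SPF 3 only. Most single genes outside the set are given over all 10 libraries only.

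The mRNAs of the ribosomal proteins moved as one block from library to library, and SPF 3 held far more of them than any other library. They took 3.95, 3.01, 2.81, 3.18 and 3.29% of all counts in VSG 1 to VSG 5, and 3.37, 2.60, 5.51, 3.34 and 3.53% in SPF 1 to SPF 5. The lowest share was in SPF 2 and the highest in SPF 3, so the 2 groups overlapped over the whole range of the VSG libraries. For the large subunit the share was 1.88 ± 0.25% in VSG and 2.13 ± 0.63% in SPF (SD, n = 5 each). For the small subunit it was 1.36 ± 0.18% and 1.54 ± 0.46%. Without SPF 3 the sham means became 1.87 ± 0.23% and 1.34 ± 0.18% (n = 4), so the difference of the means went from -0.25 to 0.016 percentage points for the large and from -0.18 to 0.018 for the small subunit. Wilson 95% intervals of a subunit's share were at most 0.0131 percentage points wide, which covers counting error only.

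**Figure D1:**
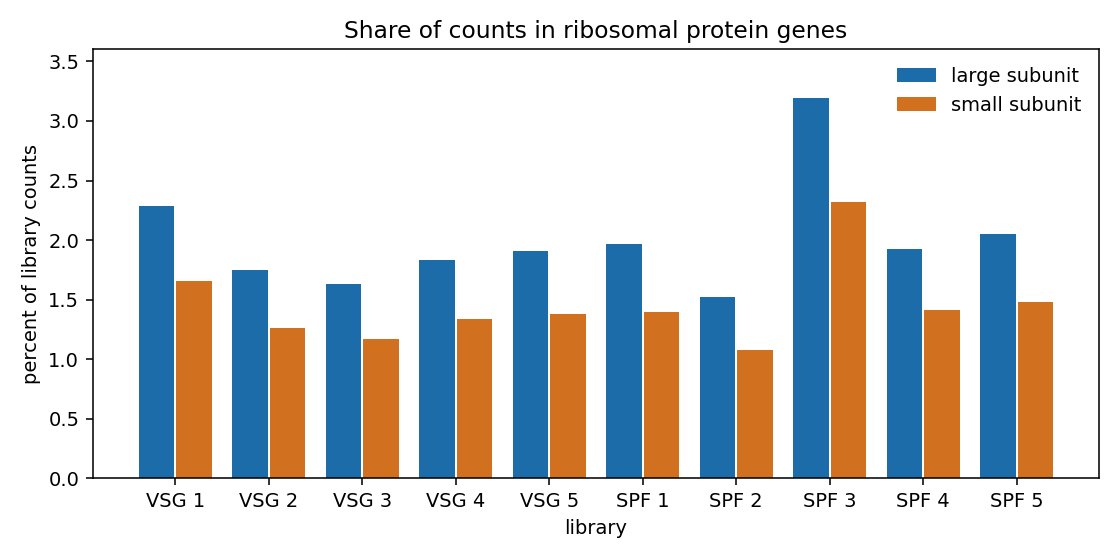
Percent of each library's counts in large-subunit (blue) and small-subunit (orange) ribosomal protein genes, 1 pair of bars for each of the 10 libraries. SPF 3 stands at 3.19% and 2.32%, above every other library, and the large-subunit bar is higher in each.

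Large and small subunit moved together. The ratio of large- to small-subunit counts lay between 1.36 in SPF 4 and 1.41 in SPF 2, although the shares themselves differed more than 2-fold between SPF 2 and SPF 3. The ratio was 1.38 ± 0.010 in VSG and 1.39 ± 0.023 in SPF (SD, n = 5 each), a difference smaller than the spread. Mean log2 CPM over the 78 members was 8.82, 8.40, 8.36, 8.53 and 8.63 in VSG 1 to VSG 5, and 8.42, 8.29, 9.47, 8.48 and 8.47 in SPF 1 to SPF 5. A level common to all members in each library took up 95.3% of the members' variance over the 10 libraries and 82.2% over the 9 without SPF 3. This description shares the libraries, their depth and their scaling, so it has no test.

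**Figure D2:**
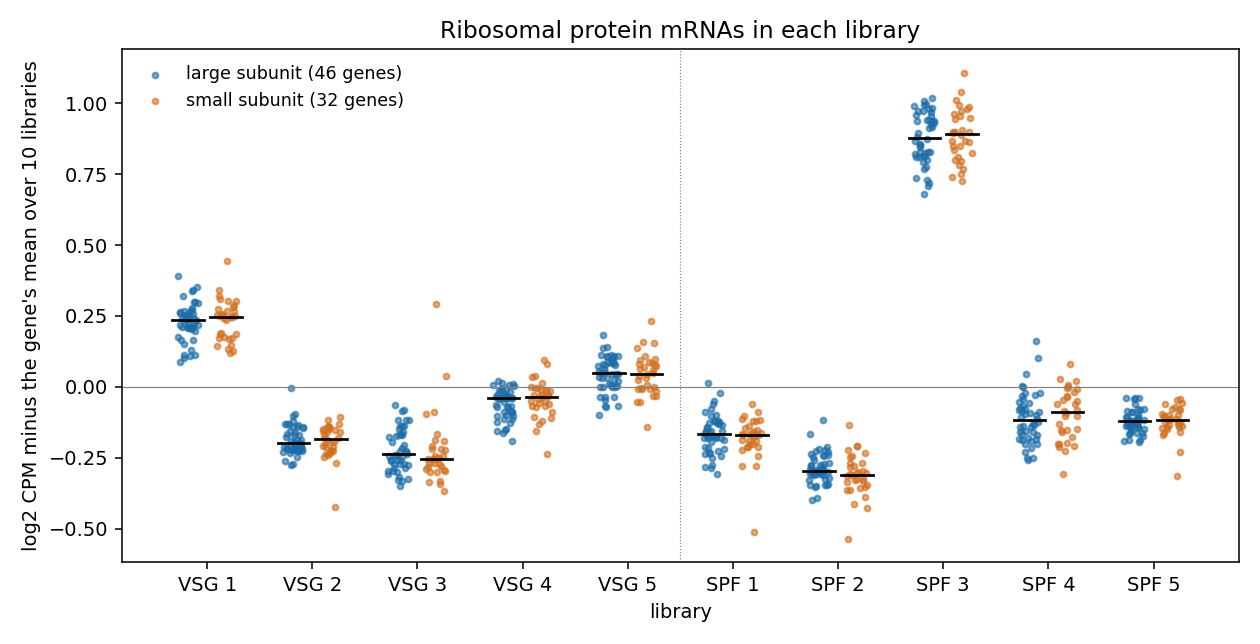
Log2 CPM of each tested member minus that gene's mean over the 10 libraries, by library, with large-subunit genes in blue, small-subunit genes in orange and black bars at the medians. Every point of SPF 3 lies above 0.6, VSG 1 is the next highest library, and the other 8 libraries lie close to or below 0.

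Between the operations no ribosomal protein gene passed the test. In edgeR's quasi-likelihood test with Benjamini-Hochberg adjustment over all 15678 genes, 0 of 78 members were called, against 0% of all genes, and adjusted p for the members ran from 0.977 to 0.999. At an unadjusted p under 0.05 there were 0 members, against 3.8% of all genes (595 genes). DESeq2 called 11 genes and limma-voom 0, with no member among them. Log2 fold changes of VSG against SPF were below 0 for 46 of 46 large-subunit and 30 of 32 small-subunit genes, against 58.1% of all genes. Their medians were -0.14 in both subunits, against -0.05 over all genes.

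That direction rested on SPF 3. Without it, all 78 members had a fold change above 0, against 46.2% of the genes then tested, with medians of 0.14 for the large and 0.15 for the small subunit and -0.03 over all genes. Still 0 members were called, and 1, Rps27l, had an unadjusted p under 0.05 (0.0485, adjusted p 0.407), against 12.2% of all genes. Without the 3 libraries rich in upper intestine genes, and with SPF 3, 77 of 78 members were below 0 with a median of -0.28. Over all genes 8872 of 15645 were then below 0, with a median of -0.05. Without those 3 and SPF 3, 78 members were above 0 with a median of 0.16, against -0.03 over all genes. Leaving out VSG 1 as well as SPF 3 left 70 members above and 8 below 0. Their median was then 0.07, against -0.03 over all genes.

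**Figure D3:**
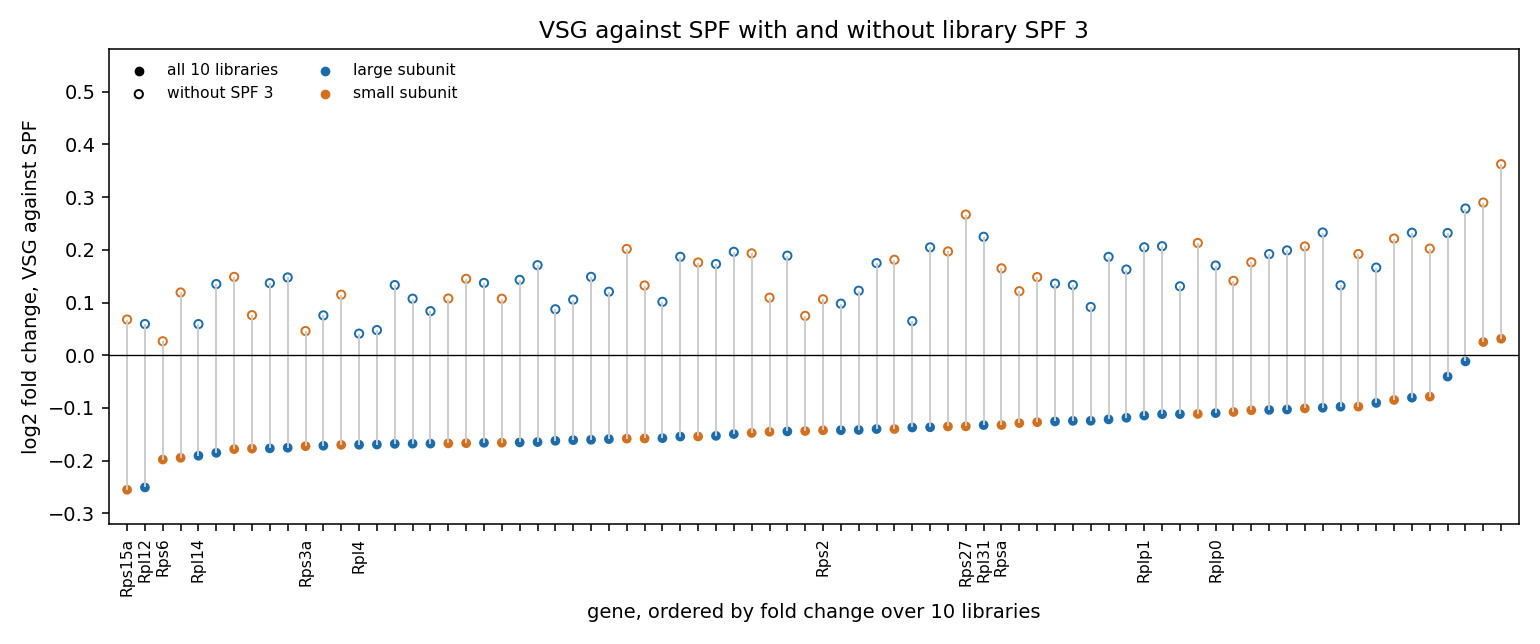
Log2 fold change of VSG against SPF for each of the 78 tested members, with filled circles for all 10 libraries, open circles without SPF 3, blue for the large and orange for the small subunit. The filled circles run from -0.26 to 0.03 and the open ones from 0.03 to 0.36, so each gene's open circle lies above 0. Names are given for the 12 members chosen by abundance, lowest p or spread.

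The stalk of the large subunit, where translation factors dock, is built on Rplp0, which carries Rplp1 and Rplp2 and lies next to Rpl12. Rplp0, the most abundant member, had 1527, 1090, 1106, 1168 and 1250 CPM in VSG 1 to VSG 5, and 1130, 1007, 2239, 1079 and 1172 CPM in SPF 1 to SPF 5. SPF 3 was the highest, VSG 1 the next, and the 4 other sham libraries lay within or just below the range of VSG. Its log2 fold change was -0.11 with a standard error of 0.25 (edgeR adjusted p 0.985), and 0.17 with a standard error of 0.15 without SPF 3 (edgeR adjusted p 0.671). Rplp1 had 777 ± 124 CPM in VSG and 841 ± 368 in SPF, and 678 ± 55.0 in SPF without SPF 3 (SD, n = 5, 5 and 4). Rpl12 had 432, 366, 340, 370 and 382 CPM in VSG, and 376, 338, 791, 365 and 379 CPM in SPF. Apart from SPF 3 the sham values of Rpl12 lay between 338 and 379 CPM, VSG 1 and VSG 5 lay above them, and the other 3 VSG libraries lay among them. Rpl12 had the lowest fold change of the large subunit, -0.25 (standard error 0.24, edgeR adjusted p 0.977), and 0.06 without SPF 3 (edgeR adjusted p 0.854).

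Among the proteins around the exit tunnel, through which the new peptide leaves, Rpl4 lines the tunnel and Rpl31 lies near its opening. Rpl4 had 1114, 955, 957, 950 and 991 CPM in VSG, and 1023, 956, 1707, 932 and 969 CPM in SPF. Outside SPF 3 and VSG 1 the level of Rpl4 stayed between 932 and 1023 CPM, a narrow band. Its log2 fold change was -0.17 (standard error 0.20), and 0.04 without SPF 3 (standard error 0.13). Rpl31, with the largest spread over libraries in the large subunit, had 516, 375, 390, 441 and 455 CPM in VSG, and 389, 332, 888, 385 and 391 CPM in SPF. Here 3 VSG libraries lay above every sham library but SPF 3, and the log2 fold change went from -0.13 (standard error 0.27) to 0.22 (standard error 0.13) when SPF 3 was left out, with edgeR adjusted p of 0.985 and 0.503. Rpl14 had 400 ± 49.5 CPM in VSG and 457 ± 159 in SPF, and 386 ± 22.5 without SPF 3.

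In the small subunit, Rpsa, also known as a laminin receptor, was the most abundant member. Rpsa had 1233, 947, 842, 1018 and 1071 CPM in VSG, and 889, 822, 1935, 1014 and 941 CPM in SPF. The order of libraries was that of Rplp0 at both ends, with SPF 3 and VSG 1 at the top and SPF 2 at the bottom among both groups. Its log2 fold change was -0.13 (standard error 0.25), and 0.16 without SPF 3 (standard error 0.15). Rps2, which lines the channel where mRNA enters, had 950, 728, 825, 682 and 728 CPM in VSG, and 704, 647, 1396, 801 and 771 CPM in SPF. VSG 3 was the third highest library for Rps2 although it was among the lowest for the members as a whole. Rps3a had 748 ± 72.8 CPM in VSG and 843 ± 260 in SPF, and 728 ± 51.2 without SPF 3.

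Rps6, whose phosphorylation by the S6 kinases is the common readout of mTOR activity, had 702, 578, 524, 560 and 600 CPM in VSG, and 580, 539, 1060, 632 and 589 CPM in SPF. All VSG libraries but VSG 1 lay below SPF 4, and the 2 groups overlapped. Its log2 fold change was -0.20 (standard error 0.21, 95% interval -0.65 to 0.26), and 0.03 without SPF 3 (standard error 0.13, edgeR adjusted p 0.948), the value nearest 0 of the 78. Rps15a had the lowest fold change of all members, -0.26 (standard error 0.24, edgeR adjusted p 0.977), from 195, 157, 150, 166 and 178 CPM in VSG and 165, 145, 361, 175 and 165 CPM in SPF. Without SPF 3 it was 0.07. Rps15a is uncertain as a single gene, since near copies of it held counts equal to 34.7% of its own.

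Rps27, a small zinc finger protein, varied most of the small subunit. It had 435, 310, 291, 391 and 409 CPM in VSG, and 326, 273, 789, 316 and 313 CPM in SPF. VSG 1, VSG 4 and VSG 5 lay above every sham library but SPF 3, while VSG 2 and VSG 3 lay among the sham libraries. The log2 fold change was -0.13 (standard error 0.29), and 0.27 without SPF 3 (standard error 0.15, edgeR adjusted p 0.490). Rps26, which contacts mRNA at its exit channel and was picked after its values were seen, had 586, 321, 405, 456 and 506 CPM in VSG, and 386, 297, 803, 348 and 392 CPM in SPF. Its fold change of 0.03 (standard error 0.28) was 1 of the 2 above 0 and became the largest of all members, 0.36, without SPF 3 (standard error 0.19, edgeR adjusted p 0.451). The other above 0 was Rps27l at 0.02, and for both the sign turned under upper quartile factors and under library totals.

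SPF 3 was the highest of the 10 libraries in 78 of 78 members, against 22.9% of all genes. Set against the median of the other 4 sham libraries, the members' log2 levels were 0.80 (Rpl7a) to 1.33 (Rps27) higher in SPF 3, with a median of 1.07 and with -0.02 over all genes. For 48 members the difference was at least 1, against 6.35% of all genes, and for 30 it was smaller. Among genes that are not members, 5% had a difference at least as large as the members' median. With library totals in place of scaling factors the members' median was 0.75 and that of all genes -0.28, so the distance of the members from all genes was 1.03 to 1.09 under the 5 scalings used. In fold terms Rps27 was 2.51-fold, Rps15 2.33-fold, Rplp0 2.03-fold, Rpl4 1.77-fold and Rpl7a 1.74-fold higher. One library has no replicate of its own, so these distances are a description of it.

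Other genes differed in SPF 3 along with transcript length. Among non-members the median difference was 0.73 for 354 genes with a transcript under 600 bases, 0.57 from 600 to 1000 bases, 0.31 from 1000 to 2000, 0.05 from 2000 to 3000, -0.25 from 3000 to 5000 and -0.68 over 5000 bases. For 345 non-members that were both under 1000 bases and at 50 CPM or more it was 0.74, and SPF 3 was the highest library in 67.2% of them. The members' transcripts had a median of 774 bases in the large and 639 in the small subunit, and their median difference of 1.07 lay above each of these bins. Over the members the difference correlated with log2 length at r = -0.30 (Spearman rho = -0.33, 78 genes) and with GC content at r = 0.17, as a description. The part of transcript length in the members' difference was not tested.

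Cell type and pathway genes also differed in SPF 3. SPF 3 was the lowest library in 10 of 10 smooth muscle genes (median log2 difference -2.19) and 9 of 10 fibroblast genes (-0.93). Over all genes tested, SPF 3 was the lowest in 3806 of 15678. It was the highest in 8 of 12 epithelial genes (0.94), which summed to 34052 CPM against 16213 to 27903 in the others. It was also the highest in 7 of 11 genes of B cells and follicles (2.65), which summed to 296 CPM against 12.2 to 234. Those B cell sums were 165 and 98.2 CPM in SPF 1 and SPF 5, and 12.2 and 19.6 in SPF 2 and SPF 4. Of 12 T cell genes SPF 3 was the highest in 7 (0.88), but by sum SPF 3 did not stand apart. The T cell sum was 101 CPM in SPF 3, 101 in SPF 4 and 98.9 in VSG 2. SPF 3 was the highest in 37 of 40 nuclear genes of oxidative phosphorylation (0.80). Among secretory cells, it was the highest in 4 of 7 goblet cell genes (1.19) and 5 of 7 Paneth cell genes (0.91). The 6 ileum genes had a median difference of 1.89, and SPF 3 was the highest library in 3 of them. They summed to 9321 CPM in SPF 3, 4691 and 4324 in SPF 1 and SPF 5, and 587 and 402 in SPF 2 and SPF 4. All these differences are set against a median that includes SPF 2 and SPF 4, which are rich in upper intestine genes. The 10 crypt stem cell genes had a median difference of -0.63. Meg3, an RNA kept in the nucleus, had 0.866 CPM in SPF 3 against 4.59 to 22.1 in the others. The part of these genes and cell types in the ribosomal protein levels was not tested.

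**Figure D4:**
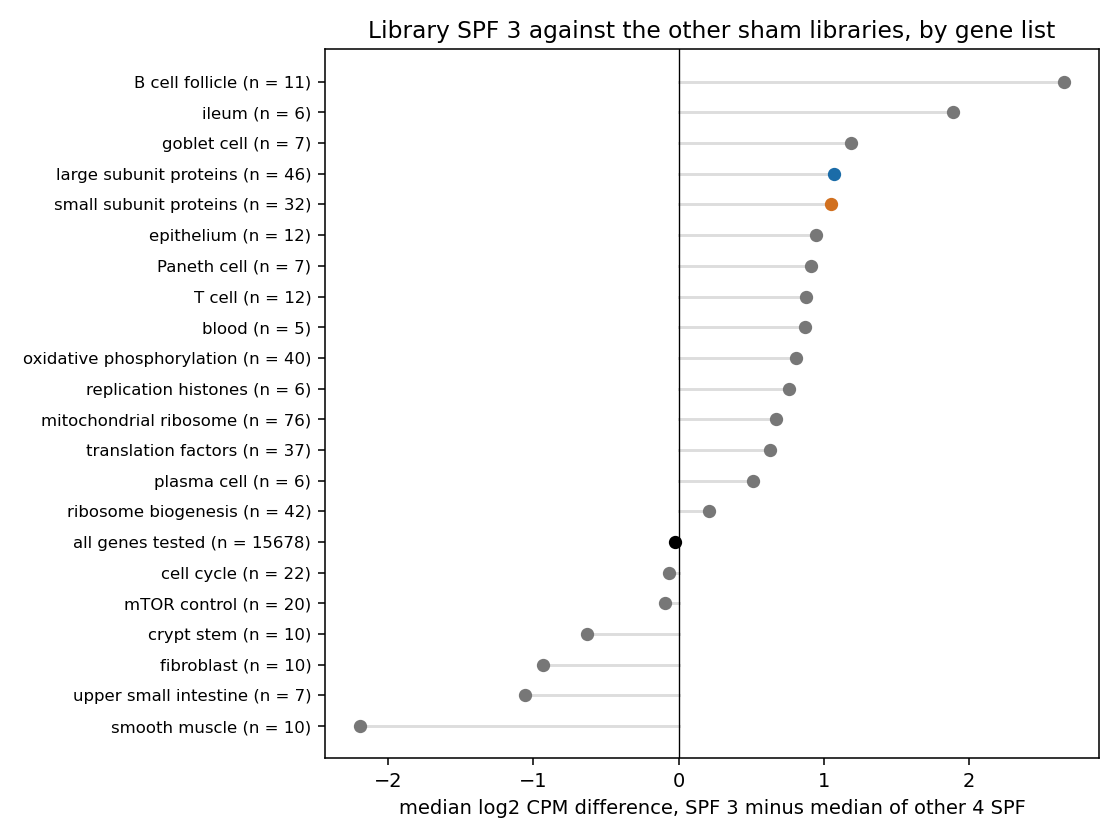
Median over the genes of each list of log2 CPM in SPF 3 minus the median of the other 4 sham libraries, with the large and small subunit in blue and orange and all genes tested in black. The subunits stand at 1.07 and 1.05, between the B cell follicle genes at 2.65 and the smooth muscle genes at -2.19, and all genes stand at -0.02. The 4 sham libraries include SPF 2 and SPF 4, which are rich in upper intestine genes.

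Over the 9 libraries without SPF 3 the members still kept a common order. VSG 1 was the highest of the 9 in 76 of 78 members, against 11.4% of all genes, and SPF 2 the lowest in 57, against 10.3%. VSG 3 was the lowest in 17, against 12.3% of all genes. Each member's log2 level was set against the mean of the other members. Over 10 libraries 76 of 78 had a Pearson r over 0.9, with a median of 0.989, and without SPF 3 the number was 66 with a median of 0.957. These values are a description, since the members share libraries and depth, and no share of all genes at this r is given beside them.

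The members that followed the rest least were paralogs and a few abundant core proteins. Rps27l, a paralog of Rps27 that p53 is known to induce, had an r of 0.77, and 0.28 without SPF 3. It had 89.8, 73.7, 101, 80.2 and 81.9 CPM in VSG, and 57.8, 74.9, 138, 81.8 and 66.3 CPM in SPF. VSG 3 was its highest library after SPF 3, whereas for its paralog Rps27 VSG 3 was among the lowest. Its log2 fold change was 0.02 (standard error 0.22), and 0.29 without SPF 3 (standard error 0.13).

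Rpl36al, a close paralog of Rpl36a, had an r of 0.49 without SPF 3. It had 127, 119, 115, 107 and 116 CPM in VSG, and 96.9, 101, 196, 134 and 109 CPM in SPF. After SPF 3 its highest library was SPF 4 and not VSG 1, and its log2 fold change was -0.12 (standard error 0.19). Rpl36a, in contrast, had an r of 0.98. Next came Rps2 at 0.63, Rpl4 at 0.72, Rpl3, a protein near the peptidyl transferase centre, at 0.72, Rpl7a at 0.80 and Rps6 at 0.84. Rpl4 varied with an SD of 0.08 log2 units over these 9 libraries, against 0.23 for Rps27. Rps27l, Rpl36al, Rpl3 and Rpl7a were picked here after their values were seen.

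**Figure D5:**
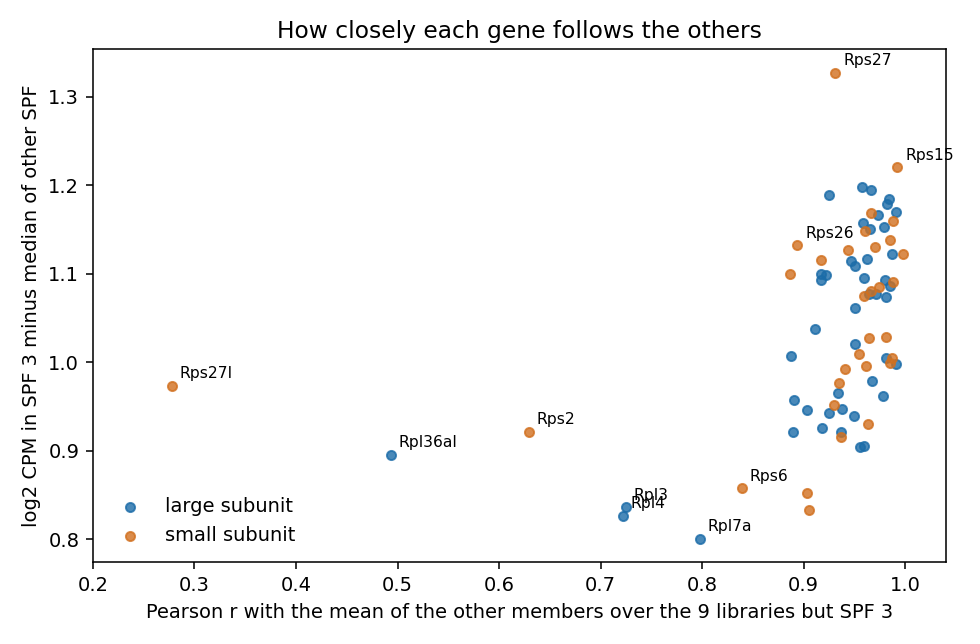
Pearson r of each tested member with the mean of the other members over the 9 libraries without SPF 3 (horizontal), against its log2 CPM in SPF 3 minus the median of the other sham libraries (vertical), large subunit in blue and small in orange. Most genes lie above 0.9, Rps27l and Rpl36al lie at 0.28 and 0.49, and Rps27 is at the top with 1.33.

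Levels per length ranked the members differently from counts. Rplp1 was highest at 1622 ± 523 CPM per kilobase of transcript, followed by Rps12 at 1551 ± 412, Rps24 at 1153 ± 394 and Rps27 at 1117 ± 440 (SD over 10 libraries). Most of that spread is the level that all members share, so the order was also read within libraries. Rplp1 was above Rps12 in 8 of 10 libraries and Rps24 above Rps27 in 7, so neither pair kept 1 order. Rplp1 and Rps12 were each above Rps24 and Rps27 in 10 of 10. The lowest were Rpl24 at 58 and Rps20 at 102, for which the annotated transcripts used are 4920 and 3706 bases long, so these values depend on that choice. Then came Rps27l at 169 ± 44.7 and Rpl36al at 232 ± 53.6. The median was 525 CPM per kilobase in the large and 671 in the small subunit.

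Of 3 further members, paralogs known from testis and striated muscle, almost nothing was counted. Rpl10l had 0 counts in every library, which allows up to 0.0881 to 0.195 CPM given 3 counts per library. Rpl39l had 9 and Rpl3l 5 counts over the 10 libraries together. Outside the rule, the paralogs Rpl22l1 and Rpl7l1 were present. Rpl22l1 had 60.1, 49.0, 57.5, 50.4 and 54 CPM in VSG and 46.8, 47.3, 94.0, 54.5 and 49.3 CPM in SPF, again highest in SPF 3.

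Ribosomal protein genes have many processed copies in the genome. By alignment, 579 annotated pseudogenes were at least 90% identical over 150 bases or more to the transcripts of 69 members. These copies held counts equal to 0.807 to 0.863% of the members' counts in each library. SPF 3 and SPF 4 both stood at 0.863%, VSG 3 at 0.861% and VSG 1 at 0.829%, and SPF 2 was the lowest. Against the member's own counts, copies held for example 34.7% for Rps15a, 21.0% for Rpl36, 8.17% for Rps19, 5.71% for Rpl29 and 5.21% for Rps2. The sources used here do not say how reads shared by such copies were divided, which leaves these members uncertain as single genes.

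Of the 10 genes outside the rule whose log2 levels correlated best with the mean of the members over the 10 libraries, the 9 given here had r of 0.991 to 0.997. Several are near copies or neighbours of members. Gm5148 is identical to Rps23 over 427 aligned bases, C330021F23Rik is 99.5% identical to it, Gm17511 is 95% identical to Rplp1, and Gm11968 and Gm13253 are 98.7 and 97.4% identical to Rps15a. Tlcd1 overlaps Rpl23a on the other strand, and without a stated use of strand in counting the reads of the pair cannot be told apart. Gm10136 had no such match, and Gm9104 was not in the annotation used and could not be compared. Eif3k, a subunit of initiation factor eIF3, reached r = 0.993. It had 127, 101, 96.2, 106 and 118 CPM in VSG and 94.7, 88.4, 190, 103 and 98.9 CPM in SPF, with SPF 3 and VSG 1 highest as for the members.

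Other genes that make, run or control the ribosome gave 0 calls in each list, with and without SPF 3, against 0% of all genes. Of 37 translation factors and associated proteins, 28 had a fold change below 0, and 6 without SPF 3. In this list Eef1g, a subunit of elongation factor 1, had 407 ± 48.6 CPM in VSG and 467 ± 122 in SPF (SD, n = 5 each), with a log2 fold change of -0.20 (standard error 0.19, edgeR adjusted p 0.977). Eif4g2, a relative of the cap-binding scaffold, ran the other way in SPF 3, with 381 CPM there against 512 to 616 in the other libraries.

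Ribosome biogenesis genes in SPF 3 lay nearer to the other sham libraries, with a median difference of 0.21 against 1.07 for the ribosomal proteins. SPF 3 was still the highest library in 18 of 42 of them, against 22.9% of all genes. Their sum was 2389 CPM in SPF 3 against 1660 to 2250 in the other libraries. Of 42 genes, 37 had a fold change below 0, and 32 without SPF 3. The nucleolar protein Npm1 had 205, 221, 201, 152 and 151 CPM in VSG, and 215, 189, 246, 229 and 223 CPM in SPF. VSG 4 and VSG 5 were the lowest libraries for Npm1, and its log2 fold change was -0.24 (standard error 0.15, edgeR adjusted p 0.977) and -0.20 without SPF 3. The nucleolar proteins Fbl and Ncl had -0.24 and -0.22 in the same fit, neither called. VSG 4 and VSG 5 were also the lowest libraries for 22 cell cycle genes, which summed to 584 and 526 CPM there against 675 to 963 elsewhere. All 22 had a fold change below 0, with and without SPF 3. The part of dividing cells in the biogenesis levels was not tested.

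Of 20 genes of the mTOR route, 8 were below 0 and 7 without SPF 3. Sesn2, a leucine sensor that restrains mTOR complex 1, had 19.0, 10.6, 23.7, 24.5 and 27.1 CPM in VSG, and 17.5, 14.7, 18.2, 11.5 and 8.69 CPM in SPF. In 4 of 5 VSG libraries Sesn2 was above every sham library, but VSG 2 lay below 4 of them. Its log2 fold change was 0.57 (standard error 0.27, edgeR adjusted p 0.977). Eif4ebp1, the repressor of cap-dependent translation that mTOR inactivates, had 34.1 ± 12.5 CPM in VSG and 23.5 ± 10.1 in SPF, a difference within the spread.

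The mitochondrial ribosome, a separate machine with its own nuclear genes, also stood high in SPF 3, which was the highest library in 63 of 76 genes, with a median difference of 0.67. Of these 76, 68 had a fold change below 0, and 27 without SPF 3. Mrpl37 had 34.1 ± 4.12 CPM in VSG and 39.9 ± 5.49 in SPF (log2 fold change -0.23, standard error 0.13, edgeR adjusted p 0.977). Of 40 nuclear genes of oxidative phosphorylation, 40 were below 0, and 6 without SPF 3.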

How the data were processed

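For each of 10 terminal ileum libraries (Illumina TruSeq, single-end reads of 50 bases, per the labels' protocols) the authors deposited estimated counts per gene, under names that contain RPKM, although 61.2% of values are whole and totals lie on the scale of reads. The second deposited file per library holds log2 values relative to the sham group. In these, the members' median VSG minus SPF was -0.06 in both subunits. The submitters' processing notes list DESeq and mm9, and the aligner and counting method are not given in the sources used here.

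Counts were rounded and tested with edgeR 4.0.16 (R 4.3.3): filterByExpr, TMM factors, the quasi-likelihood F test with group as the only term, Benjamini-Hochberg adjustment over all genes and a threshold of 0.05. Log2 CPM values have a prior count of 2. DESeq2 1.42.0, limma 3.58.1, other scalings, no filter, a replicate block and left-out libraries were alternatives. The labels number the libraries and do not state outright that each is a separate mouse, so p-values measure the spread between libraries. The procedure was also run on simulated counts with planted changes larger than those of the members and with no far library. That run therefore does not bear on the small differences here. Transcript lengths are those of the shortest complete principal transcript of GENCODE M21. Near copies were found with blastn 2.17.0, and promoter windows come from RefSeq on GRCm38.p6.

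The members and gene lists were chosen with earlier results of these data known, and some lists were taken from an earlier analysis of them. Members given with a test were, in each subunit, the 3 most abundant, the 3 with the lowest p and the 1 with the largest spread, and Rplp0. In other lists up to 3 genes with the lowest p could be named, and 10 outside genes by likeness to the set. Rps26, Rps27l and Rpl36al were added after their values were seen. Values of 2 single genes are not reported here. A list of mitochondrial transcripts matched no symbol.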

Additional observations from a re-analysis of the deposited data

Results flagged for a closer look

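By Dixon's criterion (critical value 0.71 for 5 samples), SPF 3 stood apart within the sham group in 76 of 78 members, against 10.7% of all genes. Chance flags about 1 in 20 groups, but the members share a common level in each library. SPF 3 was also known as a far library beforehand. The count is therefore a description and does not measure chance. Among members given with a test, SPF 3 was the far library at 2239 CPM in Rplp0, 1707 in Rpl4, 1494 in Rplp1, 791 in Rpl12, 739 in Rpl14, 888 in Rpl31, 1935 in Rpsa, 1396 in Rps2, 1301 in Rps3a, 361 in Rps15a, 1060 in Rps6, 789 in Rps27 and 803 in Rps26. In the VSG group, VSG 1 stood apart in Rpl4 at 1114 CPM.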

How the results depend on the processing

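No ribosomal protein gene was called under any alternative run. DESeq2's own test called 11 genes, none of them a member, and the other alternatives called 0. The count of members below 0, 46 of the large and 30 of the small subunit, became 0 and 0 without SPF 3, 0 and 0 without VSG 2, SPF 2, SPF 4 and SPF 3, and 5 and 3 without SPF 3 and VSG 1; the last 2 settings were chosen after seeing the data. Leaving out 1 library at a time, the median log2 fold change ran from -0.24 to 0.14 in the large and from -0.24 to 0.15 in the small subunit, with the highest value without SPF 3, and limma-voom gave -0.09 in both. Under the other scalings, tests and left-out libraries, it stayed at 44 to 46 and 30 to 32. The members' distance of SPF 3 was 0.75 with library totals. Leaving out 1 library at a time, log2 fold changes ran from -0.20 to 0.17 for Rplp0, -0.23 to 0.041 for Rpl4, -0.21 to 0.20 for Rplp1, -0.34 to 0.059 for Rpl12, -0.27 to 0.059 for Rpl14, -0.24 to 0.22 for Rpl31, -0.23 to 0.16 for Rpsa, -0.23 to 0.11 for Rps2, -0.25 to 0.046 for Rps3a, -0.36 to 0.068 for Rps15a, -0.27 to 0.026 for Rps6, -0.25 to 0.27 for Rps27, -0.083 to 0.29 for Rps27l, -0.21 to 0.091 for Rpl36al and -0.088 to 0.36 for Rps26; the highest value is that without SPF 3 in each. Without VSG 2, SPF 2, SPF 4 and SPF 3 they were 0.14 for Rplp0, 0.014 for Rpl4, 0.26 for Rplp1, 0.016 for Rpl12, 0.045 for Rpl14, 0.21 for Rpl31, 0.19 for Rpsa, 0.11 for Rps2, 0.056 for Rps3a, 0.065 for Rps15a, 0.032 for Rps6, 0.26 for Rps27, 0.18 for Rpl36al, 0.51 for Rps27l (edgeR adjusted p 0.156) and 0.33 for Rps26. Without SPF 3 and VSG 1 they were 0.079 for Rplp0, 0.13 for Rplp1, 0.0059 for Rpl12, 0.15 for Rpl31, 0.087 for Rpsa, 0.026 for Rps2, 0.012 for Rps15a, 0.20 for Rps27, 0.058 for Rpl36al, 0.27 for Rps27l and 0.25 for Rps26, and still below 0 for Rpl4 (-0.0042), Rpl14 (-0.019), Rps3a (-0.0079) and Rps6 (-0.042). Rps27l turned to -0.029 with upper quartile factors and -0.0093 with library totals, and Rps26 to -0.027 and -0.0077, and to -0.11 without VSG 2, SPF 2 and SPF 4. The cause was not tested.

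The replicate numbers did not pair the libraries: deviations of same-numbered libraries correlated at 0.04, 0.18, -0.05, -0.32 and -0.07. With the replicate number as a block, 0 genes and 0 members were called, 44 large and 30 small subunit genes were below 0, and the median log2 fold changes were -0.07 and -0.06. Depth left counting intervals of the members' shares far below the spread between libraries.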
